A study of Sus scrofa with 27 samples.

Results

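The genes described here are markers of T cells, natural killer (NK) cells and B cells, read in lung biopsies as a measure of lymphocyte transcripts. They were chosen by gene symbol, with 46 symbols looked up in a table of 31908 genes. A row under the same symbol was found for 42 of them, and GZMA had 2 rows, which gives 43 rows, of which 26 belong to T cells, 9 to NK and cytotoxic cells and 8 to B and plasma cells. LAT, IL2RB, GZMB and MS4A1 had no row under their symbol. Rows for IL2RB (ENSSSCG00000029668) and MS4A1 (ENSSSCG00000021812) were found by their Ensembl identifier, and a row described as granzyme B carries the symbol GZMH (ENSSSCG00000001978). These 3 rows are given by value but stand outside every count of members. All 43 rows reached 10 counts in at least 1 library, and the lowest was CD3G, with at most 12 counts.

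The lungs came from 9 Large-White pigs used as non-heart-beating donors, and after cold storage each lung block was perfused outside the body (ex vivo lung perfusion, EVLP) by the Toronto protocol. All lungs received Steen solution with methylprednisolone, cefuroxime and heparin, through a circuit that holds a filter for removing leukocytes. In the Gold Standard (GS) group, 5 pigs numbered 9, 17, 44, 55 and 77, part of the perfusate was renewed at intervals. In the Pediatric Dialysis (PD) group, 4 pigs numbered 2, 3, 4 and 5, the perfusate was dialysed continuously through a pediatric membrane. Biopsies were taken at 0h, after cold storage and before perfusion, and at 6h and 12h of perfusion, which gives 15 GS and 12 PD libraries. The study asked whether dialysis changes the response of the lung to EVLP, and the members were compared over time in each group, between the groups at 0h, and between the groups in their change. An isolated lung receives no new lymphocytes from blood, spleen or bone marrow.

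T cells recognise antigen through the T cell receptor, whose CD3 chains pass the signal to the kinases LCK and ZAP70, with CD4 or CD8 as co-receptor. B cells use the antigen receptor with the chains CD79A and CD79B and, once they become plasma cells, secrete antibody joined by the J chain (JCHAIN). NK cells and cytotoxic T cells kill with perforin and granzymes under the transcription factors EOMES and TBX21. The lung holds resident T, NK and B cells in its tissue as well as lymphocytes in its vessels, and a biopsy reads both together. In such bulk samples, fewer cells of a type and less RNA per cell cannot be told apart.

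The promoters of 5 genes are shown, for the genes on which the results turn. SLAMF6, CD96 and ZAP70 were called lower in both groups, THEMIS had the largest fitted change in GS, and CD79B, which was called in neither group, shares the longest motif with it. Each runs from 250 bases before to 50 bases after the RefSeq gene start in Sscrofa11.1, 5′ to 3′ on the strand of the gene, at chr1:35332960-35333259 (THEMIS, + strand), chr4:89980342-89980641 (SLAMF6, + strand), chr13:148192223-148192522 (CD96, - strand), chr3:56541757-56542056 (ZAP70, - strand, LOC100739325 in RefSeq) and chr12:15052716-15053015 (CD79B, + strand). Capitals mark matches, on either strand, to the letters ATGCAAAT (the octamer read by OCT factors), CTTTGA (TCF and LEF), TGTGGT (RUNX), AGGTGT (T-box) and AGGAAG (ETS).
THEMIS: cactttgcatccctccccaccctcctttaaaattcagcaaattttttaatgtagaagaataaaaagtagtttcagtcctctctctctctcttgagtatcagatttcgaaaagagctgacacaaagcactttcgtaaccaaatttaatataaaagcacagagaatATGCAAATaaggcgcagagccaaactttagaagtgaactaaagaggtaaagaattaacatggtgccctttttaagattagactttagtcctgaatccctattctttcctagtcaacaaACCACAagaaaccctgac
SLAMF6: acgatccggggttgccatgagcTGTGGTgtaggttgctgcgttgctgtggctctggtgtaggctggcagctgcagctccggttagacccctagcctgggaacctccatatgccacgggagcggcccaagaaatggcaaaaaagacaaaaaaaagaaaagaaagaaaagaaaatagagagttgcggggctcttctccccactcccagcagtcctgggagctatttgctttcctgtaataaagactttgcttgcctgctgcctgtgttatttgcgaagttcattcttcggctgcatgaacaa
CD96: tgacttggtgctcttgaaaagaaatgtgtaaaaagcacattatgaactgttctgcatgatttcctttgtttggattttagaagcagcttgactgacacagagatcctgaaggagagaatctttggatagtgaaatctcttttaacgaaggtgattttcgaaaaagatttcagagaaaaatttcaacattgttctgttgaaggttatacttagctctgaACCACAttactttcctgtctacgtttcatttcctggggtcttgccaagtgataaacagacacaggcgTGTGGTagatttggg
ZAP70: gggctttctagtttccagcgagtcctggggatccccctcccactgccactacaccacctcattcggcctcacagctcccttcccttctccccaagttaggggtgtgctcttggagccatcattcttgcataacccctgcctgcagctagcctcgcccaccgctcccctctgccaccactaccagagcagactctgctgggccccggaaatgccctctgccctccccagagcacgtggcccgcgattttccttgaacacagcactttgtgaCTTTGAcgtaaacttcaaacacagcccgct
CD79B: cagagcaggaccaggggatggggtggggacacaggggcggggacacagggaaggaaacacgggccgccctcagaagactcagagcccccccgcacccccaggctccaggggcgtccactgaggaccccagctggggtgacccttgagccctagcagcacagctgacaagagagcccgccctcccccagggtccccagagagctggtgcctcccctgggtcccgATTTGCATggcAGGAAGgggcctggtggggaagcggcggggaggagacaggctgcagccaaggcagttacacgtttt

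The octamer lay 86 bases before the start of THEMIS and 27 bases before that of CD79B, and LEF1 also held it. That is 3 of 43 member promoters (6.98%), against 1.39% of 19556 RefSeq promoters of the same length. The RUNX letters were found in 15 member promoters (34.9%, against 16.1% of all) and the ETS letters in 21 (48.8%, against 29.5%). The TCF/LEF letters (14% against 12.3%) and the T-box letters (16.3% against 12.1%) were close to their share in all promoters. These matches describe the letters only, and say nothing of binding.

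Levels are given as CPM, the counts on a gene as a share of a library's scaled total, in the order of the pigs above. Depth differed between the groups, with 26335584 to 67522703 counts on genes per GS library and 14650700 to 21820935 per PD library. No PD library was as deep as any GS library, so depth, processing and group cannot be told apart. Libraries of PD pig 2 at 12h and PD pig 4 at 0h correlated least with the others of their group, and the counts of members called at 12h in PD, the calls lost there, and the counts of the test between groups are also given without them. A gene was called when its adjusted p was under 0.05 and its fold change at least 2. Every adjusted p is from edgeR's quasi-likelihood test with the Benjamini-Hochberg correction over all genes tested, and a change is a fitted log2 fold change ± SE with pig as block.

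Before perfusion, transcripts of each lineage were present in the GS and PD lungs. Per kilobase of transcript, the highest member level at 0h was that of JCHAIN in both groups, with a mean of 131 CPM per kb in GS and 689 in PD. Among T cell genes CD2 was highest (73.9 and 51.5 CPM per kb), and CD3D (46.3 and 40.4) and CD3E (45.1 and 25.3) followed. CD3G, another CD3 chain, was almost unread, at 0.0459 CPM per kb in GS and 0.0857 in PD, although CD3D and CD3E beside it are part of the same receptor. Its gene model overlaps UBE4A and ATP5MG on the same strand, and the filter on low counts left it out of the tests.

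During perfusion the summed T cell level was lower than at 0h in nearly every lung. In GS the 26 T cell rows added up to a median of 715 CPM at 0h (503 to 830), 477 CPM at 6h (292 to 673) and 555 CPM at 12h (275 to 614), below the start in every pig at 6h and in 4 of 5 at 12h. In PD the median was 506 CPM at 0h (432 to 644), 345 at 6h (292 to 510) and 297 at 12h (264 to 338), below the start in 4 of 4 pigs at both times. The median pig kept 0.669 of its T cell sum at 12h in GS and 0.594 in PD.

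The sum of 7 B cell rows without JCHAIN moved the same way. Its median was 188 CPM at 0h, 171 at 6h and 142 at 12h in GS, and 111, 82.8 and 61.5 CPM in PD, lower than at 0h in every pig of both groups at both times. The 8 NK and cytotoxic rows without KLRK1 had a median of 147, 118 and 135 CPM in GS, lower in each pig at both times, and of 154, 124 and 98 CPM in PD, lower in 3 of 4 pigs at 6h and 4 of 4 at 12h. Of genes carried by all leukocytes, 9 added up to a median of 2444, 2284 and 2189 CPM in GS and 2195, 2159 and 2299 CPM in PD. Among the 5 GS pigs the leukocyte sum was below its start in 3 at 6h and 4 at 12h, and among the 4 PD pigs in 2 at each time. By edgeR 1 of the 9 was called lower at 12h in each group and 0 at 6h. With the adjusted p alone, 4 of the 9 were lower at 6h and 5 at 12h in GS (CD37, PTPRC, RAC2, CORO1A and ARHGDIB), and 0 and 1 in PD, with a median change at 12h of -0.39 log2 in GS and -0.57 in PD. The pan-leukocyte gene PTPRC (CD45) had a change of -0.79 ± 0.14 at 12h in GS (adjusted p = 0.000876) and of -0.60 ± 0.48 in PD (adjusted p = 0.477). Markers of macrophages and monocytes, 11 genes, added up to a median of 5128, 7322 and 5774 CPM in GS and 4228, 3427 and 3471 CPM in PD.

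Markers of other cells also moved with time. The 7 ciliated cell genes had a median sum of 209 CPM at 0h (190 to 249) and 150 CPM at 12h (123 to 214) in GS, lower in 5 of 5 pigs, and of 339 CPM at 0h (283 to 358), 256 CPM at 6h (175 to 272) and 178 CPM at 12h (119 to 594) in PD, lower in 4 of 4 pigs at 6h and 3 of 4 at 12h. In PD the median pig at 12h kept 0.459 of its sum of 6 neutrophil genes, 0.467 of 9 genes of red cells and platelets and 0.611 of 9 alveolar type 2 genes, each lower in 3 of 4 pigs. In GS the same 3 sums were lower at 12h in 0, 1 and 1 of 5 pigs. The haemoglobin gene HBB fell in GS, with a log2 change of -1.57 ± 0.47 at 6h and -1.50 ± 0.45 at 12h (edgeR, adjusted p = 0.0246 and 0.0189), and had -2.67 ± 1.37 at 12h in PD (adjusted p = 0.256). The part of leukocyte, macrophage and these other cells in the levels of the members was not tested.

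**Figure D1:**
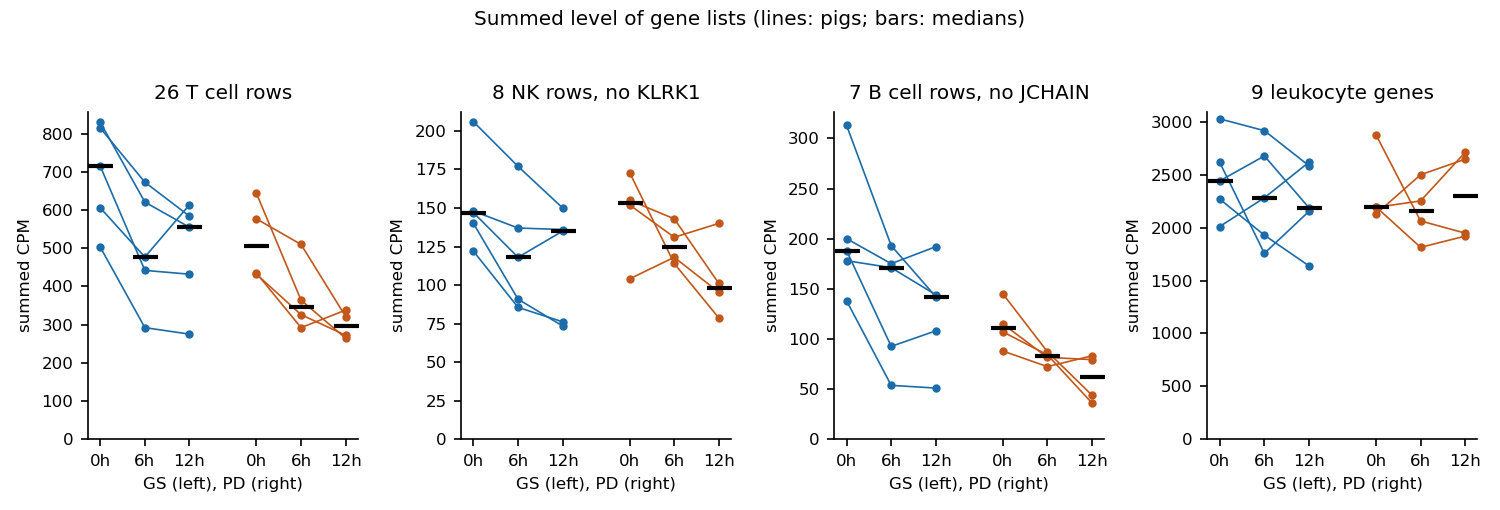
Summed level in CPM (vertical axis, from 0) of T cell, NK, B cell and pan-leukocyte genes in each library at 0h, 6h and 12h (horizontal axis; GS blue, PD orange). Lines join the biopsies of 1 pig and black bars are medians. The T cell median goes from 715 to 555 CPM in GS and from 506 to 297 CPM in PD. The leukocyte median stays between 2159 and 2444 CPM, with 4 of 5 GS and 2 of 4 PD pigs below their start at 12h. By gene, the 9 leukocyte genes had a median log2 change at 12h of -0.39 in GS and -0.57 in PD.

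In GS at 6h, 10 of 42 members tested were called lower and 0 higher, against 5.56% of all 18594 genes called lower and 5.5% called higher. With the adjusted p alone and no fold threshold, 21 members were lower and 0 higher, against 14.9% and 13.6% of all genes (28.5% in either direction). The median change of the members was -0.63 log2, and that of all genes -0.05. The members called were THEMIS, SLAMF6, TBX21, BANK1, CD96, ZAP70, SH2D1A, EOMES, PAX5 and CD22.

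At 12h in GS, 13 of 42 members were called lower and 0 higher, against 8.66% and 6.99% of all genes (15.7% in either direction), and with the adjusted p alone 24 were lower and 0 higher, against 20.8% and 17.6% of all genes (38.4% in either direction). The same 10 genes were called as at 6h, together with CD2, CD8B and the GZMA row ENSSSCG00000016903. The median change was -0.64 log2. Both times share the 0h biopsies, so the lists are not independent of each other. Between 12h and 6h no member was called in either group by edgeR, and none of all genes was (0%), while 0 members in GS and 4 in PD had an unadjusted p under 0.05 (against 4.74% and 10% of all genes) and DESeq2 called 0 and 1 (against 0.0108% and 1.51%).

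In PD at 6h no member was called, against 0.00643% of all 15545 genes called lower and 0.135% called higher (0.142% in either direction), while 9 of 41 members tested (22%) had an unadjusted p under 0.05, against 9.41% of all genes, and DESeq2 called 2 (4.88%), against 2.75%. The median change of the members was -0.48 log2, and with 1 pig left out it lay between -0.58 (without pig 2) and -0.27 (without pig 3). At 12h in PD, 7 of 41 members were called lower and 0 higher, against 2.76% and 3.22% of all genes (5.98% in either direction), with a median change of -0.87 log2 against -0.05 for all genes. These were BANK1, ZAP70, SLAMF6, CD96, EOMES, CD3D and LCK. The count rests on few pigs: it was 0 without pig 3 and 0 without pig 5 (0% of all genes in both fits), 3 (7.14%) without pig 4 against 2.55% of all genes, and 17 (40.5%) without pig 2 against 24.4%. It was 18 (42.9%) without the library of pig 2 at 12h, against 26.2% of all genes, and 4 (9.52%) without that of pig 4 at 0h, against 2.9%, so the calls over all genes moved with those of the members. All 7 calls held without the library of pig 2, and CD96, LCK and EOMES lost theirs without that of pig 4. With the whole of pig 4 left out, CD3D, LCK, EOMES and SLAMF6 lost theirs.

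**Figure D2:**
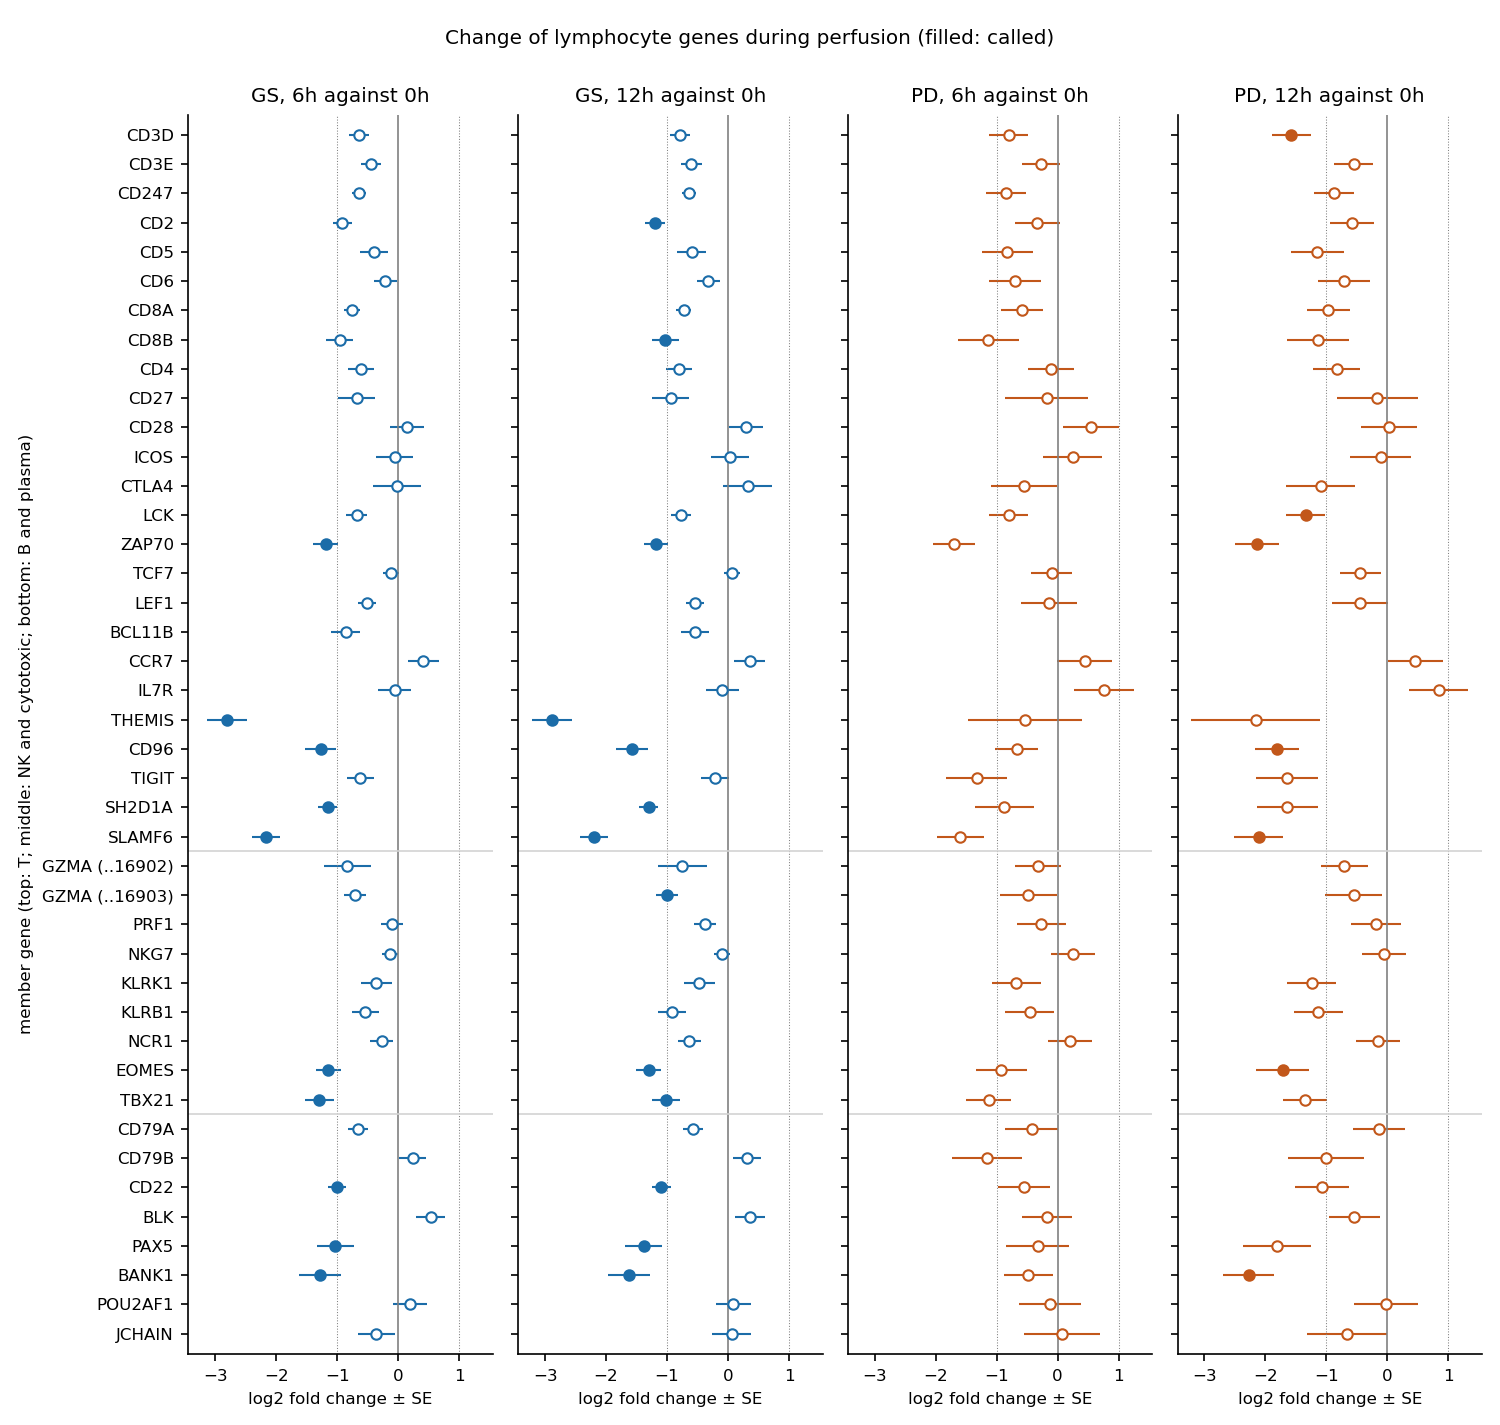
Fitted log2 fold change against 0h (horizontal axis, points with SE bars) of the members tested, in GS (blue) and PD (orange) at 6h and 12h, with T cell genes at the top, NK and cytotoxic genes in the middle and B cell genes at the bottom. Filled points are called, dotted lines mark 2-fold, and all filled points lie left of 0 (10, 13, 0 and 7 of them from left to right).

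Of 6 adhesion and regulatory genes of the T cell surface, among them the adaptor SH2D1A, 3 were called in GS at 6h, 4 in GS at 12h and 2 in PD at 12h. Such counts in small groups, here and below, stand against 5.56%, 8.66% and 2.76% of all genes called lower in these comparisons. SLAMF6, a self-binding receptor of T and NK cells on chromosome 4 (89980786 to 90003647), stood at 36.4, 25.4, 23.3, 24 and 28.9 CPM in the GS lungs at 0h, 10.9, 9.12, 3.68, 4.27 and 5.45 CPM at 6h and 13.3, 4.86, 3.18, 5.41 and 7.37 CPM at 12h. In PD it was 13.9, 22.2, 30.5 and 14.3 CPM at 0h, 5.38, 5.52, 12.8 and 3.87 at 6h and 1.51, 5.36, 7.79 and 4.84 at 12h. No library at 6h or 12h reached the lowest 0h library of its own group. SLAMF6 fell, with a log2 change of -2.16 ± 0.23 at 6h and -2.19 ± 0.23 at 12h in GS (edgeR, adjusted p = 0.000153 and 7.14e-05), and of -2.11 ± 0.40 at 12h in PD (adjusted p = 0.0198).

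CD96, a receptor for nectin family ligands on T and NK cells (chromosome 13, 148090629 to 148192231), had 13.4, 15.1, 9.97, 7.67 and 14 CPM at 0h in GS, 4.61, 7.64, 2.79, 5.46 and 4.69 at 6h and 5.99, 2.76, 3.1, 3.47 and 5.25 at 12h. The PD values were 12.9, 22.9, 14.3 and 11.9 CPM, then 9.99, 15.1, 5.7 and 8.44, then 2.91, 5.25, 4.69 and 4.53. It was lower than its start in all 9 pigs at both times, and in both groups the 12h libraries lay below every 0h library. CD96 fell, with a log2 change of -1.27 ± 0.26 at 6h and -1.57 ± 0.26 at 12h in GS (edgeR, adjusted p = 0.00359 and 0.000718) and of -1.80 ± 0.36 at 12h in PD (adjusted p = 0.0234), the PD call being lost without the 0h library of PD pig 4.

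SH2D1A, the adaptor that links SLAM family receptors such as SLAMF6 to kinases, fell, with a log2 change of -1.16 ± 0.15 at 6h and -1.30 ± 0.16 at 12h in GS (edgeR, adjusted p = 0.000495 and 0.000135). Its 6h call in GS was lost without a pig block. In PD its change at 12h was -1.64 ± 0.50 (adjusted p = 0.0724), with all 4 pigs lower. CD2, an adhesion receptor that binds CD58, fell, with a log2 change of -1.20 ± 0.16 at 12h in GS (edgeR, adjusted p = 0.000233), and its change in PD was -0.58 ± 0.37 (adjusted p = 0.361). CD5 and CD6, which temper signals of the receptor, were not called in any of the 4 comparisons with 0h.

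Of the proximal signalling genes, ZAP70 and THEMIS were called in GS, and ZAP70 and LCK in PD. ZAP70, the kinase that docks on phosphorylated CD3 chains (chromosome 3, 56515449 to 56541740), had 21.4, 23.5, 30.1, 22.6 and 29.6 CPM at 0h in GS, 8.66, 9.82, 11.3, 11.5 and 16.3 at 6h and 12.7, 8.36, 6.96, 15.6 and 15.5 at 12h. In PD it had 21.1, 25.4, 26.3 and 21 CPM at 0h, 4.93, 10.5, 7.19 and 7.1 at 6h and 4.53, 5.03, 4.55 and 7.46 at 12h. At the start the PD and GS levels overlapped, and during perfusion every library of either group lay below all its 0h libraries. ZAP70 fell, with a log2 change of -1.19 ± 0.20 at 6h and -1.18 ± 0.20 at 12h in GS (edgeR, adjusted p = 0.00155 and 0.000956) and of -2.14 ± 0.35 at 12h in PD (adjusted p = 0.0176). Without GS pig 44 its 12h change in GS was no longer called.

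LCK, the kinase bound to CD4 and CD8, fell, with a log2 change of -1.34 ± 0.32 at 12h in PD (edgeR, adjusted p = 0.0353) and had a change of -0.77 ± 0.17 in GS (adjusted p = 0.00396), under the fold threshold. The PD call held in 7 of 12 alternatives. It was lost without PD pig 3, 4 or 5, without the 0h library of pig 4 alone, and with no filter on low counts. THEMIS, a regulator of receptor signalling in developing T cells, is a long and weakly read gene (chromosome 1, 35333454 to 35519870, transcript of 13213 bases). Its GS levels were 3.55, 3.46, 3.07, 2.33 and 3.88 CPM at 0h, 0.277, 0.513, 0.18, 0.577 and 1.01 at 6h and 0.383, 0.386, 0.371, 0.372 and 0.878 at 12h, from 8 to 275 counts per library. THEMIS fell, with a log2 change of -2.81 ± 0.32 at 6h and -2.89 ± 0.32 at 12h (edgeR, adjusted p = 0.00024 and 8.67e-05), and the perfused libraries all lay below the 0h libraries. In PD it had 1.26, 1.47, 0 and 0.85 CPM at 0h, 0.822, 0.625, 0.324 and 0.301 at 6h and 0, 0.595, 0.138 and 0 at 12h, from only 0 to 28 counts per library, and the 12h change of -2.16 ± 1.06 was not called (adjusted p = 0.236).

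Of the 6 receptor chains and co-receptors tested, CD8B was called in GS and CD3D in PD, each at 12h, and 1 gene of 6 is a count too small to set apart from the 8.66% of all genes lower in GS. CD3E, a signalling chain of the receptor, had 52.8, 38.6, 62.1, 49.3 and 75.2 CPM at 0h in GS, 29.4, 21.3, 53.4, 48.8 and 69 at 6h and 24.7, 18.8, 41.7, 57.9 and 60.5 at 12h, and 28.2, 47.4, 23.9 and 25.3 CPM at 0h, 18.4, 32.8, 32.8 and 19.7 at 6h and 18.1, 21.7, 23.4 and 19.8 at 12h in PD. The 0h and 12h levels overlapped in GS, and in PD all 4 libraries at 12h lay below the lowest at 0h. Its 12h change was -0.60 ± 0.17 in GS (edgeR, adjusted p = 0.0145) and -0.55 ± 0.32 in PD (adjusted p = 0.309), under 2-fold in both. CD3D, its partner chain, fell, with a log2 change of -1.58 ± 0.32 at 12h in PD (adjusted p = 0.024), from 25.2, 42.9, 31.2 and 23.4 CPM to 10.3, 9.53, 11.4 and 9.18 CPM, and had a change of -0.79 ± 0.16 in GS (adjusted p = 0.00263).

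CD8A, the co-receptor chain of cytotoxic T cells that some NK cells of the pig also carry, had 18, 27.3, 30.9, 25.3 and 39.1 CPM at 0h in GS, 8.31, 17.4, 19.9, 15.7 and 25 at 6h and 9.51, 14.3, 20.9, 18.8 and 25 at 12h. It was 20.2, 32, 26.1 and 23.2 CPM in PD at 0h, 13.6, 19.4, 16.5 and 18.1 at 6h and 5.18, 14.7, 15.7 and 20.1 at 12h. CD8A was lower than the start in all 9 pigs at both times, with 12h changes of -0.73 ± 0.13 in GS (edgeR, adjusted p = 0.000926) and -0.97 ± 0.36 in PD (adjusted p = 0.122). CD8B, its partner, fell, with a log2 change of -1.03 ± 0.22 at 12h in GS (adjusted p = 0.00356), a call that was lost with DESeq2 or its size factors, with all libraries in 1 fit and without GS pig 9, 17 or 44. The models of CD8A and CD8B overlap on the same strand.

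CD4, the co-receptor of helper T cells, had 20.9, 22, 41.4, 33.8 and 32.2 CPM at 0h in GS, 10.1, 7.37, 41.4, 27.3 and 29.1 at 6h and 7.14, 12.8, 29.4, 23.5 and 23.7 at 12h. In PD it had 9.01, 14.5, 7.23 and 5.37 CPM at 0h, 4.74, 10.6, 10.2 and 6.84 at 6h and 6.04, 4.71, 5.24 and 3.44 at 12h. The times overlapped in GS, and all 9 pigs were below their start at 12h. Its 12h change was -0.80 ± 0.21 in GS (edgeR, adjusted p = 0.0107) and -0.83 ± 0.39 in PD (adjusted p = 0.213). Macrophages of some species also read CD4, and in these biopsies its model overlaps GPR162.

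Genes of naive and memory T cells and of co-stimulation were not called at any time in either group. TCF7, a transcription factor of naive and stem-like T cells, had 107, 35.5, 147, 90.9 and 92.1 CPM at 0h in GS, 94.5, 30.5, 133, 82.2 and 105 at 6h and 100, 37.3, 132, 141 and 94.3 at 12h, and 31.5, 41.1, 32.9 and 20.5 CPM at 0h, 22.6, 31.3, 43 and 23.2 at 6h and 14.5, 24.1, 25.9 and 28.4 at 12h in PD. GS pig 17 was the lowest of its group at each time, and the times overlapped in both groups. Its 12h change in GS was 0.07 ± 0.13 (edgeR, adjusted p = 0.682). CCR7, the receptor that guides naive T cells and B cells to lymph nodes, had 14.1, 10.3, 24.6, 14.1 and 12.5 CPM at 0h in GS, 13.5, 7.6, 35.7, 21 and 36.5 at 6h and 13.7, 8.77, 26.7, 35.1 and 22.7 at 12h, and 8.96, 13.7, 10.9 and 7.92 CPM at 0h, 10.2, 12.8, 24.7 and 10.7 at 6h and 21.6, 7.96, 10.6 and 16.9 at 12h in PD. It was above its start in 3 of 5 GS pigs and 2 of 4 PD pigs at 12h, with changes of 0.35 ± 0.25 in GS (adjusted p = 0.285) and 0.46 ± 0.45 in PD (adjusted p = 0.575).

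Of the co-stimulatory and checkpoint receptors CD27, CD28, ICOS, CTLA4 and TIGIT, none was called, and their median change at 12h was 0.04 log2 in GS and -0.16 in PD. TIGIT, an inhibitory receptor that shares a ligand with CD96, had the lowest value of the group in PD (-1.64 ± 0.51, edgeR, adjusted p = 0.0757), against -0.22 ± 0.23 in GS (adjusted p = 0.474). IL7R, the receptor for the survival cytokine IL-7, had a change of -0.09 ± 0.27 in GS and 0.84 ± 0.48 in PD, neither called. LEF1, a partner of TCF7, had -0.54 ± 0.15 in GS (adjusted p = 0.0127), under 2-fold.

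**Figure D3:**
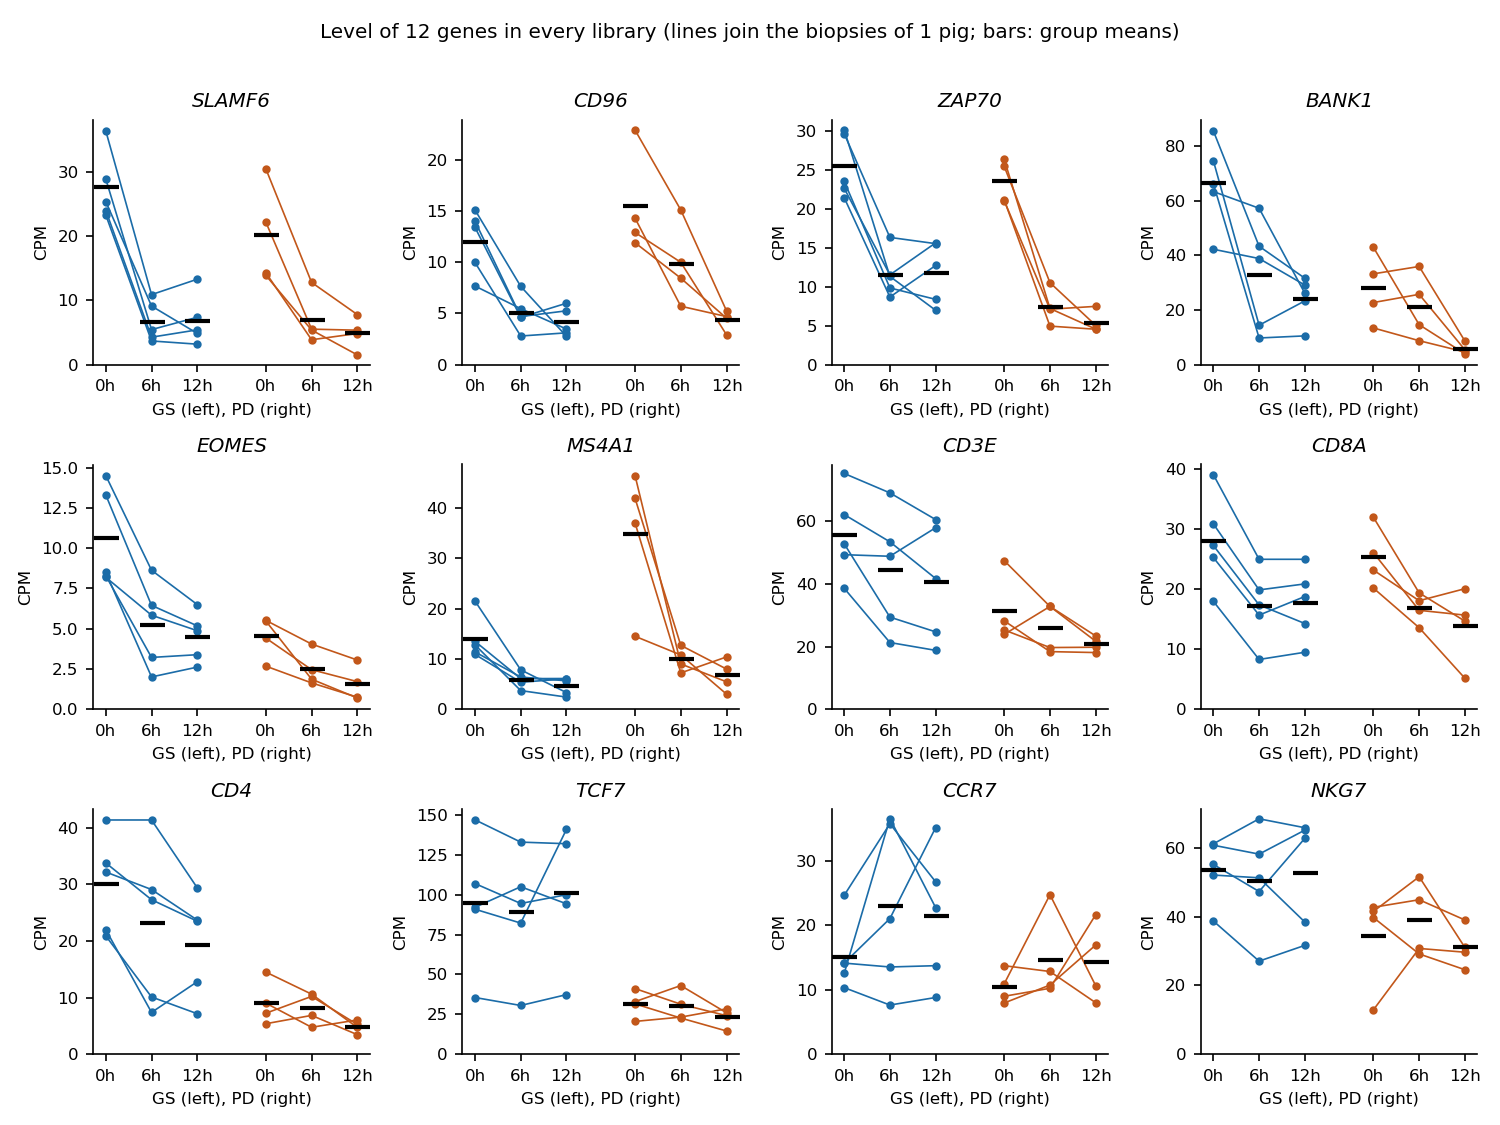
Level in CPM (vertical axes, from 0) of 12 genes in every library at 0h, 6h and 12h (horizontal axis; GS blue on the left, PD orange on the right). Lines join the biopsies of 1 pig and black bars are group means; SLAMF6 drops in all 9 pigs, whereas TCF7, CCR7 and NKG7 overlap between times.

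Among the NK and cytotoxic genes the transcription factors were called in GS and most effectors were not. In PD only EOMES of these genes was called, at 12h. EOMES, which directs NK and memory CD8 T cells (chromosome 13, 14210083 to 14215797), had 8.29, 8.49, 14.5, 13.3 and 8.19 CPM at 0h in GS, 3.22, 2.01, 8.63, 6.45 and 5.84 at 6h and 3.39, 2.62, 6.5, 5.18 and 4.88 at 12h, and 2.68, 5.48, 4.42 and 5.52 CPM at 0h, 1.64, 1.87, 2.46 and 4.05 at 6h and 0.755, 0.704, 1.72 and 3.06 at 12h in PD. It was lower than the start in all 9 pigs at both times. EOMES fell, with a log2 change of -1.15 ± 0.20 at 6h and -1.30 ± 0.20 at 12h in GS (edgeR, adjusted p = 0.00187 and 0.000528) and of -1.72 ± 0.44 at 12h in PD (adjusted p = 0.044). The GS call at 6h was lost without a pig block and without GS pig 17. The PD call was lost in 6 of 12 alternatives, the one without the 0h library of PD pig 4 among them. TBX21 (T-bet), its relative, had 13.8, 14.6, 30.5, 18.9 and 22.2 CPM at 0h in GS, 4.26, 3.29, 14.4, 9.38 and 17.9 at 6h and 6.21, 3.7, 16.1, 11.8 and 21.7 at 12h, and fell, with a log2 change of -1.29 ± 0.23 at 6h (adjusted p = 0.00211) and -1.01 ± 0.23 by 12h (adjusted p = 0.00476). The 6h call was lost without a pig block. The 12h call was lost in 7 of 11 alternatives. Those fits were without a pig block, without a filter on low counts, and without GS pig 9 or 17. The rest were 1 fit of all libraries, DESeq2 and its size factors. In PD it had 8.25, 13, 6.88 and 12.3 CPM at 0h, 2.4, 5.67, 3.95 and 6.8 at 6h and 3.78, 3.41, 3.45 and 4.72 at 12h, with no overlap between 0h and later libraries. Its change in PD at 12h, -1.35 ± 0.37, just missed the threshold (edgeR, adjusted p = 0.0521).

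NKG7, a granule protein of killer cells, had 38.8, 52.2, 61.3, 55.3 and 60.9 CPM at 0h in GS, 27.1, 51.4, 68.6, 47.4 and 58.3 at 6h and 31.7, 38.5, 66, 62.9 and 65.3 at 12h, and 39.8, 41.6, 12.9 and 42.8 CPM at 0h, 29.2, 51.7, 30.8 and 45 at 6h and 24.6, 31.1, 29.7 and 39.1 at 12h in PD. PRF1, which codes for perforin, had 11.7, 18.3, 33.3, 23.9 and 22.3 CPM at 0h, 12, 9.65, 33.1, 24.1 and 30.8 at 6h and 9.92, 9.46, 24.2, 27.4 and 18.7 at 12h in GS, and 12.7, 16.5, 29.7 and 16.3 CPM at 0h, 14.6, 12.6, 19 and 16.1 at 6h and 17.2, 9.53, 11.7 and 29.1 at 12h in PD. The times overlapped for both genes in both groups. Their 12h changes in GS were -0.10 ± 0.13 for NKG7 and -0.38 ± 0.18 for PRF1 (edgeR, adjusted p = 0.587 and 0.108).

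Granzyme A, a protease of killer granules, has 2 neighbouring rows whose reads may be shared. The row ENSSSCG00000016903 had 16.5, 13.7, 16.6, 13.1 and 13.2 CPM at 0h in GS, 15.1, 8.8, 8.45, 7.4 and 7.14 at 6h and 10.4, 5.02, 6.56, 8.14 and 7.9 at 12h, and 14.4, 42.1, 55.7 and 27.3 CPM at 0h, 29.6, 11.8, 47.9 and 16.3 at 6h and 21.7, 14.5, 27.1 and 29.2 at 12h in PD. In GS all 5 libraries at 12h lay below those at 0h and it fell to 0.499 of its start (edgeR, adjusted p = 0.00127), at the edge of the fold threshold, and the call was lost in 8 of 11 alternatives. The row ENSSSCG00000016902 had 8.5, 5.22, 0.864, 1.59 and 5.46 CPM at 0h in GS, 3.01, 3.12, 0.647, 1.85 and 2.11 at 6h and 1.72, 1.35, 1.37, 1.9 and 3.94 at 12h, and 1.97, 10.7, 8.84 and 4.89 CPM at 0h, 2.09, 7.5, 4.86 and 4.86 at 6h and 0.863, 5.03, 5.59 and 4.84 at 12h in PD, and was not called. The receptors KLRK1 (NKG2D), KLRB1 (CD161) and NCR1 (NKp46) had 12h changes of -0.47 ± 0.26, -0.92 ± 0.22 and -0.63 ± 0.19 in GS and -1.24 ± 0.40, -1.13 ± 0.41 and -0.16 ± 0.36 in PD, and none was called. IL2RB, found by identifier, had -0.16 ± 0.18 in GS and -0.45 ± 0.32 in PD, and the row GZMH had -0.36 ± 0.18 and -0.36 ± 0.56.

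Among the B cell genes, BANK1, a scaffold of B cell receptor signalling (chromosome 8, 118814053 to 119157504), had the largest fitted changes at 12h of the 8 members tested. It stood at 74.6, 66.2, 85.5, 63.3 and 42.2 CPM at 0h in GS, 14.4, 9.73, 43.3, 57.2 and 38.8 at 6h and 23.3, 10.5, 31.6, 26.1 and 29.1 at 12h, and at 33.2, 42.9, 13.4 and 22.7 CPM at 0h, 35.9, 14.6, 8.74 and 25.7 at 6h and 8.63, 3.95, 4.62 and 5.42 at 12h in PD. At 6h the GS pigs 9 and 17 were far below the others, and at 12h every library of both groups lay below all its 0h libraries. BANK1 fell, with a log2 change of -1.28 ± 0.35 at 6h and -1.63 ± 0.34 at 12h in GS (edgeR, adjusted p = 0.0163 and 0.00306) and of -2.27 ± 0.42 at 12h in PD (adjusted p = 0.0189). The call at 6h was lost without a pig block and without GS pig 9, 17 or 44.

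MS4A1 (CD20), the surface protein by which B cells are most often recognised, was found by identifier. It had 13.5, 12.8, 21.5, 10.9 and 11.4 CPM at 0h in GS, 6.09, 3.72, 7.84, 5.38 and 6.41 at 6h and 6.12, 2.43, 3.32, 6.06 and 5.66 at 12h, and 14.5, 46.4, 41.9 and 37 CPM at 0h, 10.8, 9.01, 12.7 and 7.23 at 6h and 3.02, 5.47, 8 and 10.4 at 12h in PD. No perfused library of either group reached the lowest 0h library of its group. MS4A1 fell, with a log2 change of -1.29 ± 0.25 at 6h and -1.62 ± 0.26 at 12h in GS (edgeR, adjusted p = 0.00313 and 0.000635) and of -2.39 ± 0.44 at 12h in PD (adjusted p = 0.0189).

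PAX5, the transcription factor that fixes B cell identity, had 13.3, 12, 35.4, 15 and 13.8 CPM at 0h in GS, 5.64, 2.62, 13.3, 15.1 and 13.2 at 6h and 5.82, 2.81, 6.99, 13.3 and 8.52 at 12h, and 1.69, 7.59, 2.29 and 4.3 CPM at 0h, 0.632, 5.1, 2.98 and 3.79 at 6h and 1.08, 1.14, 0.414 and 1.34 at 12h in PD. GS pig 44 stood far above the others at 0h, and the times overlapped at 6h. PAX5 fell in GS, with a log2 change of -1.04 ± 0.30 at 6h and -1.39 ± 0.31 at 12h (edgeR, adjusted p = 0.0231 and 0.00395), the 6h call being lost in 6 of 11 alternatives, among them those without GS pig 9, 17 or 44, and its change of -1.81 ± 0.56 in PD was not called (adjusted p = 0.0776). CD22, an inhibitory co-receptor of B cells, had GS changes of -1.01 ± 0.15 at 6h and -1.10 ± 0.15 at 12h, both called (adjusted p = 0.000866 and 0.000308), and -1.07 ± 0.44 in PD (adjusted p = 0.164). The 6h call, close to the fold threshold, was lost in 7 of 11 alternatives, namely without a filter on low counts, with DESeq2 or its size factors, in 1 fit of all libraries, with the trend in length and GC content removed, and without GS pig 9 or 44, while the 12h call held in all 11.

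CD79A, a signalling chain of the B cell receptor, had 33.6, 16.1, 89.9, 57.2 and 59.6 CPM at 0h in GS, 23, 11.4, 45, 38.2 and 40.4 at 6h and 30.7, 9.82, 35.7, 53.1 and 43.7 at 12h, and 10.3, 18.2, 6.14 and 16.3 CPM at 0h, 3.6, 13.4, 9.58 and 10.5 at 6h and 12.7, 9.2, 8.62 and 12 at 12h in PD. It was below its start in all 5 GS pigs at both times, by less than 2-fold (-0.57 ± 0.16 at 12h, edgeR, adjusted p = 0.0153), and in 2 of 4 PD pigs at 12h (-0.14 ± 0.43). Its model overlaps ARHGEF1, DMRTC2 and ENSSSCG00000003042 on the same strand and spans the RefSeq gene RPS19, so its reads may be shared with them. CD79B, the partner chain, had 12h changes of 0.31 ± 0.23 in GS and -1.01 ± 0.62 in PD, and BLK, a kinase of B cells, 0.36 ± 0.24 and -0.54 ± 0.42, with neither called. POU2AF1, the co-activator that OCT factors use in B cells, had 0.09 ± 0.29 and -0.03 ± 0.53.

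JCHAIN, the plasma cell member, was called in neither group. Its GS levels were 268, 193, 131, 163 and 176 CPM at 0h, 131, 185, 128, 208 and 108 at 6h and 184, 117, 343, 340 and 99.1 at 12h, and its PD levels 919, 2080, 433 and 492 CPM at 0h, 1368, 832, 767 and 641 at 6h and 122, 543, 745 and 763 at 12h. The times overlapped in both groups, and the 12h change was 0.06 ± 0.31 in GS (edgeR, adjusted p = 0.896) and -0.67 ± 0.65 in PD (adjusted p = 0.573). The PD library of pig 2 at 12h was the lowest of its group, at 122 CPM.

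At 12h, 5 genes were called in both groups, ZAP70, EOMES, BANK1, CD96 and SLAMF6, which is 38.5% of the 13 called in GS and 71.4% of the 7 called in PD. Of all 15459 genes tested in both groups, the genes called with the same sign in both made up 28.2% of the GS calls and 67% of the PD calls, or 23% and 66.1% among the genes called lower. Across the 41 members tested in both groups the changes had a Pearson r of 0.698 at 12h and 0.53 at 6h, against 0.791 and 0.586 over all genes, given as a description over genes, which are not independent of each other. Of these members 31 were below 0 in both groups at each time, as were 43.7% of all genes at 12h and 37.5% at 6h. The GS and PD lungs are different animals and share no 0h biopsy.

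**Figure D4:**
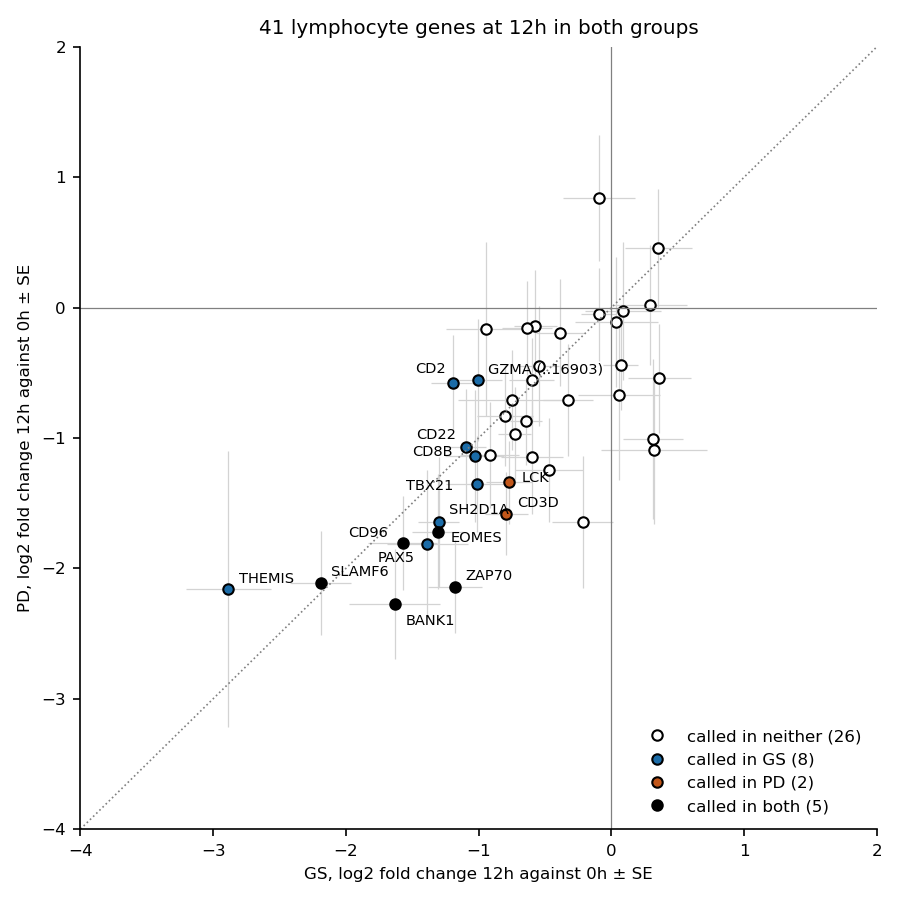
Log2 fold change at 12h against 0h of 41 members in GS (horizontal axis) and PD (vertical axis), with SE bars, and colour showing in which group a gene was called. The dotted line marks equal change, the 5 black points are ZAP70, EOMES, BANK1, CD96 and SLAMF6, and Pearson r is 0.698.

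Whether the groups differed in their change was tested as the interaction of group and time in 1 fit of all 27 libraries. No member was called at 6h or at 12h, and none of all 17884 genes was (0%). At an unadjusted p under 0.05 there were 3 members at 6h (BCL11B, CD79B and THEMIS) and 4 at 12h (CD3D, ZAP70, CD79B and TIGIT), which is 7.14% and 9.52% of the members against 5.85% and 5.98% of all genes, and DESeq2 called 0 members at both times, against 0.0391% and 0.0839% of all genes. Without the library of PD pig 2 at 12h these counts were 3 at 6h and 9 at 12h, against 12.1% and 23.3% of all genes, and without that of PD pig 4 at 0h they were 1 and 3, against 4.48% and 4.75%, with 0 members called in each of these fits. The exact Wilcoxon test compared the changes of 5 GS and 4 PD pigs. It gave an unadjusted p under 0.05 for 4 members at 6h, against 6.04% of all genes. These were THEMIS, ZAP70, BCL11B and CD79B. At 12h it did so for 1 member, THEMIS, against 4.04%. No member passed after adjustment. The 12h result for THEMIS did not show in its log2 CPM changes. These ran from -4.78 to 2.59 in PD, to either side of the GS changes of -3.17 to -2.13. Some PD libraries had 0 counts of THEMIS, so its ranks depend on the scale of the change, and this p is not read as a difference. The smallest exact p, 0.0159, is the lowest this test can give with 5 against 4 pigs. Adjusted over all genes it could hardly pass, so the lack of adjusted calls decides nothing. The median difference of the members, PD minus GS, was 0.22 log2 at 6h and -0.26 at 12h. Neither value was stable: with 1 pig left out it lay between 0.07 (without PD pig 4) and 0.39 (without PD pig 3) at 6h and between -0.46 (without PD pig 5) and 0.00 (without PD pig 3) at 12h, and without the 0h library of PD pig 4 alone it was 0.10 at 6h.

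The intervals of these differences were wide. For ZAP70 the 12h change in PD differed from that in GS by -0.99 ± 0.36 log2 (95% interval -1.70 to -0.28, edgeR, adjusted p = 0.746), and for TIGIT by -1.44 ± 0.50 (-2.42 to -0.45, adjusted p = 0.732). For SLAMF6 the difference was 0.06 ± 0.42 (95% interval -0.76 to 0.88), for CD96 -0.25 ± 0.41 (-1.06 to 0.55) and for CD3E 0.02 ± 0.33 (-0.63 to 0.66). For CD79B it was -1.34 ± 0.62 (-2.55 to -0.14, adjusted p = 0.826), from 0h levels of 9.61, 24.8, 31.3 and 31.8 CPM in PD and 12.3, 8.96, 18.8, 12.2 and 10.9 CPM in GS and 12h levels of 20.5, 5.3, 4.96 and 17.9 CPM and 13.5, 8.42, 15.7, 29.8 and 16.7 CPM. The intervals of SLAMF6 and CD3E stayed within 2-fold either way, and those of CD96 and BANK1 (-1.74 to 0.40) did not.

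At 0h, before any dialysis, 13 of 42 members were called between the groups, 4 higher and 9 lower in PD, against 15.2% and 13.9% of all 16477 genes. The members' share of 31% is close to that of all genes, 29.1%, in this fit, and with the trend in length and GC content described next removed the shares were 33.3% and 20.2%. Higher in PD were KLRK1 (2.85 ± 0.37 log2, edgeR, adjusted p = 0.000136), JCHAIN (2.43 ± 0.43, adjusted p = 0.000949), KLRB1 (2.15 ± 0.27, adjusted p = 0.000118) and the GZMA row ENSSSCG00000016903 (1.30 ± 0.32, adjusted p = 0.00719). Lower were BCL11B, PAX5, CD79A, THEMIS, CD4, CD27, TCF7, BANK1 and EOMES, by 1.18 to 2.95 log2. Without PD pig 4, BANK1 and the GZMA row were no longer called, nor EOMES without PD pig 2, and THEMIS lost its call when any of 6 pigs was left out. MS4A1, found by identifier, was higher in PD (1.36 ± 0.33, adjusted p = 0.00581), but did not pass with that trend removed (adjusted p = 0.142).

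The levels behind these calls did not overlap for KLRK1, an activating receptor of NK cells, which had 12.2, 36.6, 14.4, 14.2 and 19.3 CPM in GS at 0h and 88.7, 226, 122 and 104 CPM in PD. KLRB1, a lectin receptor of NK and some T cells, had 6.1, 7.62, 6.9, 5.56 and 3.6 CPM in GS and 15.8, 29.7, 27.3 and 29.6 CPM in PD. BCL11B, a transcription factor that keeps T cell identity, had 1.69, 3.91, 3.47, 1.54 and 2.24 CPM in GS and 0.109, 0.737, 0 and 0.425 CPM in PD, where it had 0 to 14 counts. From the values given above, JCHAIN, PAX5, CD4, EOMES and THEMIS did not overlap between the groups at 0h either, while CD79A, TCF7, BANK1 and the GZMA row did. KLRK1 overlaps ENSSSCG00000000640 on the same strand, and its reads may be shared with it. The same holds for CD79A, whose model spans RPS19 and ARHGEF1, and for CD27, whose model spans TAPBPL.

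The difference at 0h went with the length of the transcript. Over all genes, those under 1500 bases had a median of 1.04 log2 and those over 3000 bases of -0.28 in PD against GS, with a Spearman correlation over genes of -0.429. Of the members tested, 15 have transcripts under 1500 bases, with a median of -0.15 log2, and 15 have transcripts over 3000 bases, with a median of -0.85 log2, and the Spearman correlation over the 42 members was -0.261. The short ones include all called higher (KLRB1, GZMA, JCHAIN and KLRK1), and also CD79A with 672 bases and CD27 with 750, which were called lower. With the trend in length and GC content removed, 1 member was called higher, KLRK1 at 1.43 log2 (adjusted p = 0.00568), and 13 lower, which is 33.3% of the members against 20.2% of the 13982 genes with a known transcript length. Of the 13 members called before, 7 were still called, and TCF7, PAX5, EOMES, JCHAIN, KLRB1 and the GZMA row were not. TCF7 had -0.93 log2 (adjusted p = 0.038), EOMES -0.77 (adjusted p = 0.0384) and JCHAIN 0.85 (adjusted p = 0.0341), under 2-fold, and PAX5 -1.09 (adjusted p = 0.07), while the GZMA row turned to -0.26 (adjusted p = 0.547) and KLRB1 to 0.39 (adjusted p = 0.268), all by edgeR. Transcripts of other cells also differed at 0h, in both directions. Of 5 genes of red cells and platelets tested, 2 were called higher in PD, with HBB at 4.96 ± 0.73 log2 (adjusted p = 0.000284) and PPBP at 1.38 ± 0.31, and 2 lower, with ITGA2B at -1.59 ± 0.20 and GP9 at -1.55 ± 0.55. The 9 markers of alveolar type 2 cells added up to a median of 44036 CPM in PD and 10336 CPM in GS, with 2 called higher, SFTPC at 3.56 ± 0.40 and SFTPD at 1.36 ± 0.25, 1 lower, SFTPB at -1.35 ± 0.38, and a median difference of 0.21 log2. Their part in the differences of the members was not tested, and donor, extraction, sequencing depth and group cannot be told apart here. The changes over time compare biopsies of the same pig, and their Spearman correlation with length over all genes was -0.0849 at 6h and -0.0785 at 12h in GS and 0.268 at 6h and 0.031 at 12h in PD, and -0.24 for 12h against 6h in PD. For the difference in change between the groups it was 0.353 at 6h, with a median of -0.35 log2 for transcripts under 1500 bases and 0.18 for those over 3000, and 0.127 at 12h. Over the members it was 0.135 at 6h and -0.149 at 12h. For the members' changes over time it was -0.266 at 6h and -0.205 at 12h in GS. In PD these values were -0.129 at 6h, -0.342 at 12h and -0.261 for 12h against 6h. At 12h in PD, members under 1500 bases had a median change of -0.58 log2 and those over 3000 bases of -1.071.

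**Figure D5:**
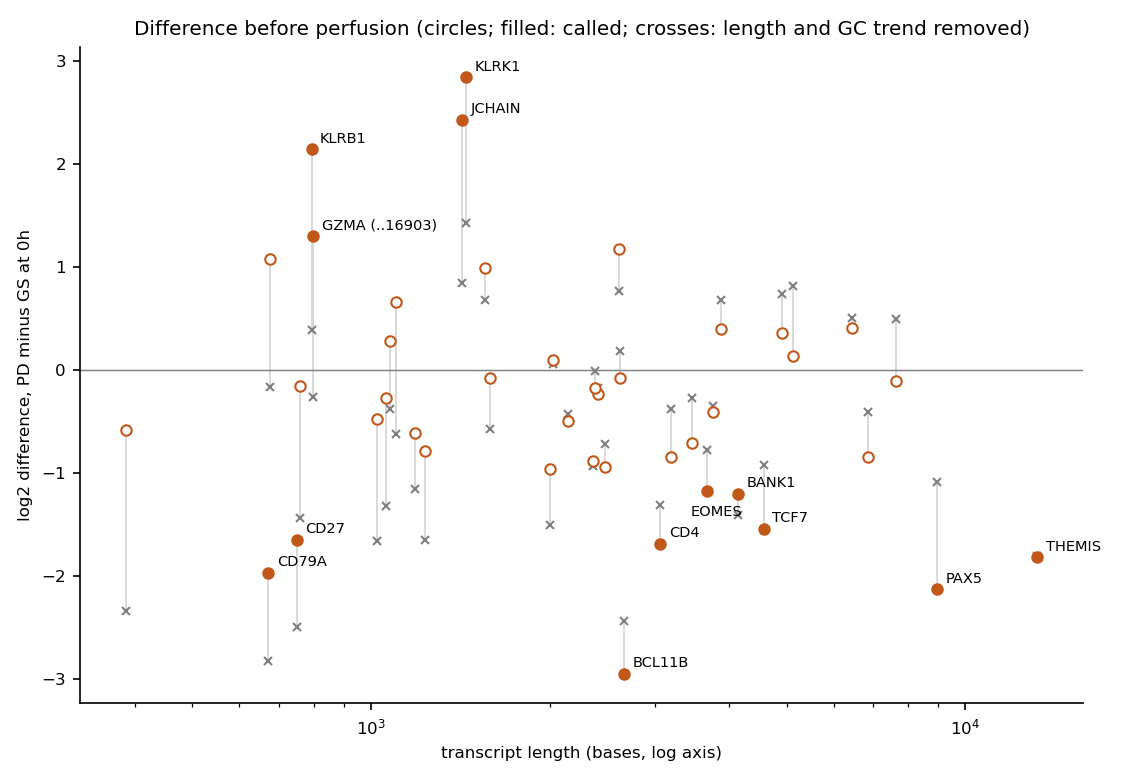
Difference between PD and GS at 0h (vertical axis, log2) of the 42 members tested against transcript length in bases (horizontal log axis). Filled circles are called, and crosses joined to them show the same gene after removal of the length and GC trend, with KLRK1 going from 2.85 to 1.43 and GZMA (ENSSSCG00000016903) from 1.30 to -0.26.

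Related genes that are not members give the surroundings. Of all genes, 5.56% were lower at 6h in GS, 8.66% lower and 6.99% higher at 12h in GS, and 2.76% lower and 3.22% higher at 12h in PD. Of 13 NK and cytotoxic effectors tested, 3 were lower at 6h and 6 at 12h in GS, and 1 at 12h in PD, with 0 higher. CD244, a SLAM family receptor of NK cells, fell, with a log2 change of -1.60 ± 0.43 at 12h in GS (edgeR, adjusted p = 0.0116) and of -2.17 ± 0.44 in PD (adjusted p = 0.0242). Of 23 genes of lymphocyte trafficking, 7 were lower at 6h and 9 at 12h in GS with 0 higher, and 4 of 22 were lower and 1 higher at 12h in PD. CX3CR1, the fractalkine receptor of patrolling monocytes and cytotoxic lymphocytes, fell, with a log2 change of -3.26 ± 0.56 at 12h in GS (edgeR, adjusted p = 0.000955) and of -3.39 ± 0.72 in PD (adjusted p = 0.0281). ITGA4, the integrin chain for entry into tissue, fell, with a log2 change of -1.41 ± 0.22 in GS (adjusted p = 0.000556) and of -2.01 ± 0.39 in PD (adjusted p = 0.0211). The gene that rose in PD was CXCL10, a chemokine that draws T cells, by 4.08 ± 0.99 log2 at 12h (adjusted p = 0.0371), against 0.64 ± 0.54 in GS (adjusted p = 0.364).

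Of 21 further genes of T cell receptor signalling tested in GS, 1 was higher and 2 lower at 12h, and of 20 in PD none was called, so in GS the share was near that of all genes (15.7%). TRAT1, an adaptor that stabilises the receptor, fell, with a log2 change of -1.72 ± 0.31 in GS (edgeR, adjusted p = 0.00119). Of 17 genes of B cell receptor signalling and plasma cells, 1 was higher and 3 lower at 12h in GS and 2 higher and 1 lower in PD, against 15.7% and 5.98% of all genes in either direction. BTK, a kinase of B cells and myeloid cells, fell, with a log2 change of -1.31 ± 0.27 in GS (adjusted p = 0.00238) and of -1.83 ± 0.39 in PD (adjusted p = 0.0275), while PRDM1 (Blimp-1), a transcription factor of plasma cells, effector T cells and myeloid cells, rose by 1.38 ± 0.40 log2 in GS (adjusted p = 0.0161) and 2.29 ± 0.37 in PD (adjusted p = 0.0176). Of a survival list of cytokines, their receptors and signalling genes (JAK and STAT5), 2 of 12 rose at 12h in GS and 2 of 11 in PD. In both groups these were IL4R and STAT5A. Of all genes, 6.99% and 3.22% were called higher. IL4R rose by 1.94 ± 0.26 log2 in GS and 2.76 ± 0.47 in PD (edgeR, adjusted p = 0.000265 and 0.0176). Summed levels of these lists did not all fall. At 12h the median pig had 1.17 of its T cell receptor signalling sum in GS and 0.997 in PD (1 of 5 and 2 of 4 pigs lower). For B cell receptor signalling and plasma cells it had 1.41 and 1.62 (1 of 5 and 0 of 4 lower). For NK and cytotoxic effectors it had 0.647 and 0.517 (5 of 5 and 3 of 4 lower), for trafficking 0.944 and 3.2, and for the survival list 1.78 and 2.03.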

How the data were processed

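Lung biopsies of 9 pigs were measured by RNA sequencing, with 27 libraries. The deposited values are raw counts per Ensembl gene. Per the paper's methods and the submitters' processing notes, the authors sequenced stranded mRNA libraries (TruSeq), demultiplexed them with bcl2fastq 2.2.18.12, trimmed them with cutadapt, aligned them with TopHat2 2.0.14 to Sscrofa11.1 (Ensembl release 101) and counted reads with featureCounts of Subread. How strand and multi-mapped reads were treated in counting is not given in the sources used here, so reads of overlapping genes cannot be assigned with certainty. The labels name both PicoPure and Trizol with NucleoSpin for RNA extraction without saying which library had which. Columns of values left unused numbered 0.

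From the counts, each group was fitted with edgeR 4.0.16 in R 4.3.3 (filterByExpr, TMM factors, robust quasi-likelihood test, pig as block, 3 times), 1 fit of all 27 libraries gave the differences in change between the groups, and the 0h libraries were fitted without a block. A gene was called at an adjusted p under 0.05 (Benjamini-Hochberg over all genes tested) and at least 2-fold, with no fold threshold for 12h against 6h. CPM used TMM factors of all 27 libraries, and log2 CPM a pseudocount of 0.5 counts. Biopsies with the same number come from the same animal, and their deviations from the group means had a mean correlation of 0.513 in GS (0.344 to 0.73) and 0.112 in PD (-0.265 to 0.462), against -0.116 and -0.0337 between different animals. Gene levels varied more between PD than between GS biopsies (biological coefficient of variation 0.4885 against 0.2588), and no 2 libraries were alike within sampling noise (smallest chi-square per degree of freedom 29.9). Each pig is 1 replicate. Tests were checked on simulated data, with no result of that check reported here. Alternatives were DESeq2 1.42.0, its size factors, no filter, no block, no fold threshold, all libraries in 1 fit, each pig left out and, added after seeing the data, a length and GC trend removed by offsets and 2 libraries left out.

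Values in every library are given for 1 gene of each role and for up to 5 called members in each direction with the largest change in a comparison. The members and lists were chosen with earlier results of these data known. Transcript lengths and promoters are from RefSeq (Sscrofa11.1), which matched all 43 members and 56.4% of all genes. One related gene is not reported here.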

Additional observations from a re-analysis of the deposited data

Results flagged for a closer look

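In 115 groups of 4 or 5 libraries or changes, 9 held a sample that stood apart from the others by Dixon's criterion, and chance alone gives about 1 in 20. Values are log2 CPM or log2 changes against 0h.

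At 0h, KLRB1 was 3.98 in PD pig 2 and 4.77 to 4.89 in the other PD pigs. NKG7 was 3.69 in PD pig 4 and 5.31 to 5.42 in the others. THEMIS was -5.12 in PD pig 4, with 0 counts, and -0.19 to 0.586 in the others. PAX5 was 5.15 in GS pig 44 and 3.58 to 3.91 in the other GS pigs.

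In the changes, TCF7 was 0.186 at 6h in GS pig 77 (others -0.22 to -0.145) and 0.631 at 12h in GS pig 55 (others -0.146 to 0.0712). CD79A changed by -0.998 at 6h in GS pig 44 (others -0.585 to -0.496), and CD8A by -1.11 at 6h in GS pig 9 (others -0.69 to -0.636). CD4 changed by -1.62 at 12h in PD pig 3 (others -0.634 to -0.46). The 9 values fall on 7 pigs, and 2 of them on PD pig 4 at 0h, the library that correlated second least with its group.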

How the results depend on the processing

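No alternative turned the median change of the members in a comparison with 0h, and the called members of those comparisons kept their sign under all 11 (GS) or 12 (PD) alternatives. Without a replicate block 5 members were called at 6h in GS (against 6.04% of all genes), and 1 at 6h and 8 at 12h in PD (against 0.643% and 9.39%). With no fold threshold 21 members were lower at 6h and 24 at 12h in GS. At 6h in PD, DESeq2 called 2 members (2.75% of all genes), 1 fit of all 27 libraries 3 (2.68%), the fit with the length and GC trend removed 2 (1.47%), and the fit without the library of pig 2 at 12h 2 (1.59%). The median change at 6h in PD ranged from -0.582 to -0.269 over pigs left out. At 12h in PD, DESeq2 called 12 (16.5% of all genes), the fit of all libraries 16 (18.5%) and the fit with the trend removed 14 (17.8%). Leaving out a pig gave 0 to 17, with 0 called without pig 3 and without pig 5, and leaving out a library gave 18 (pig 2 at 12h) or 4 (pig 4 at 0h), the calls over all genes rising and falling with them. For 12h against 6h in PD, DESeq2 and the fit of all libraries called 1 each (1.51% and 2.75% of all genes). The difference in change at 12h ranged from 0 to 1 members over pigs left out, with the 1 found without PD pig 2 (0.813% of all genes). The median difference in change ranged from 0.067 to 0.389 at 6h and from -0.464 to 0.004 at 12h over pigs left out, so its sign at 12h was lost without PD pig 3. The 0h difference of GZMA (ENSSSCG00000016903) turned from 1.30 to -0.26 with the length and GC trend removed. Why these values moved was not tested.

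In GS, ZAP70, THEMIS, CD96 and SLAMF6 at 6h and CD2, EOMES, CD22, BANK1, THEMIS, CD96, SH2D1A and SLAMF6 at 12h were called under all 11 alternatives. With pigs left out, EOMES at 6h was lost without GS pig 17, CD22 without pig 9 or 44, and PAX5 without pig 9, 17 or 44. CD22 at 6h and TBX21 at 12h were each lost in 7 of 11 alternatives, GZMA (ENSSSCG00000016903) at 12h in 8, PAX5 at 6h and CD8B at 12h in 6. At 0h, CD4, CD27, BCL11B, KLRK1 and CD79A were called between the groups under all 14 alternatives, and the fit with the length and GC trend removed lost 6 of the 13 calls and added 7 (33.3% of members against 20.2% of all genes, from 31% against 29.1%). In PD none of the 7 calls at 12h held under all 12. The PD libraries were shallower and more variable, so a low count of calls there does not show that less changed.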
